A study of Mus musculus with 8 samples.

Results

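The sarcomere is the contractile unit of striated muscle. Of 37991 genes in the deposited table, 41 that build, anchor or maintain it were examined in mouse cardiomyocytes. Members were found by matching their symbols to Ensembl identifiers, and all 41 had a row. Both groups came from mice labelled alpha-MHC MERCREMER MADM, whose hearts had received adenovirus carrying 4 cell cycle genes (called 4F in the labels), and cells were taken 2 weeks later. The 4 single colored libraries hold cells labelled as having performed the cell cycle, and the 4 double colored libraries hold cells given the same 4F but labelled as not having done so. Virus, Cre and reporter are therefore shared by both groups, and neither group is a heart without them. The Cre recombinase is driven by a cardiomyocyte promoter and is active only in the presence of tamoxifen or a related ligand. In MADM (mosaic analysis with double markers) a recombined cell that divides can give daughters of 1 color each, but a cell with both colors can arise without division or from another pattern of chromosome segregation. The sources used here state neither the age of the mice nor any pooling, so p-values measure only how far these libraries spread, which may in part be technical.

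In the sarcomere, thin filaments of actin carry tropomyosin and the troponin complex, which make contraction depend on calcium, and slide along thick filaments of myosin. Titin spans from the Z-disc, where thin filaments of neighboring sarcomeres are crosslinked by alpha-actinin, to the M-band, where thick filaments are held in register. Dividing cardiomyocytes are known to take their sarcomeres apart, and adult cells keep them in repair with small heat shock proteins, myosin chaperones and the MuRF ubiquitin ligases.

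None of the 39 members with enough reads to test passed the threshold in either direction (edgeR quasi-likelihood test, adjusted p under 0.05), where 2.32% of all 12466 tested genes were higher and 0.16% lower in single colored cells. DESeq2 also placed none, beside 4.46% of all genes in either direction. At an unadjusted p under 0.05 the edgeR test had 4 members lower (Tnni3, Cmya5, Fhl2 and Ckm) and 1 higher (Synpo2l), beside 6.1% and 9.02% of all genes. That count of lower members depended on single libraries. It was 0 without double colored replicate 3, where 538 of all 12882 tested genes were lower at that p. Without replicate 2 of that group it was 1 (662 of 12952 genes). It was 2 without double colored replicate 4 (520 of 12930) and 2 without single colored replicate 4 (823 of 12850). Without single colored replicate 3 it was 14 (919 of 12740). DESeq2 gave 8 (816 of 12466 genes) and the replicate block 19 (1223 of 12466). Scaling by nuclear-encoded totals gave 2 (418 of 12466) and by library totals 0 (22 of 12466). No filter gave 10 (1238 of 23680) and a filter at 5 CPM 1 (322 of 4776). The log2 fold change of single over double colored cells was negative for 32 of the 39, with a median of −0.30, against 50.6% of all genes and a median of −0.01. In 19 of the 39 the single colored library lay below the double colored library with the same number in all 4 pairs, where 13.7% of all genes did so, and no member lay above in all 4, against 14% of all genes. Same-numbered libraries varied together in their deviations from the group means, and with the replicate number as a block 4 members were lower and none higher, beside 2.57% and 4.97% of all genes. These 4 were Tcap, Cmya5, Tnni3 and Fhl2. When both libraries numbered 1 were also left out, Tcap, Cmya5, Tnni3 and Lmod2 were lower and Synpo2l higher, beside 1.3% and 2.92% of all genes.

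The depth was 23820700 to 30082278 counted reads per library, of which 77.5% to 88.3% came from mitochondrially encoded genes, leaving 3503353 to 6112595 nuclear-encoded reads. The mitochondrial share averaged 82.4 ± 3.97% in single and 86.5 ± 1.88% in double colored libraries (SD, n = 4), and library totals include these reads. The members took 15.5%, 18.9%, 16.9% and 18.2% of the nuclear-encoded reads in double colored libraries 1 to 4, and 11.3%, 16.4%, 16.6% and 15.5% in single colored libraries 1 to 4. Single colored replicate 1 stood apart for these genes. It was the lowest of the 8 libraries for 36 of the 39 tested members, all but Acta1, Synpo2l and Xirp2, whereas it was the lowest for 18.8% of all tested genes. Across the members, the median distance from the double colored mean was −0.84 on the log2 CPM scale in that library, −0.22 and −0.16 in single colored replicates 2 and 4, and 0.01 in replicate 3. Without that library the members' median fold change was −0.14, with 28 of 39 negative, and again none passed, beside 1.12% of all genes. None passed either when any other library was left out, beside 1.64%, 1.47%, 1.63% and 1.04% of all genes without double colored replicates 1 to 4 and 2.37%, 2.39% and 1.8% without single colored replicates 2 to 4, nor without both libraries numbered 1 (1.18%).

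**Figure D1:**
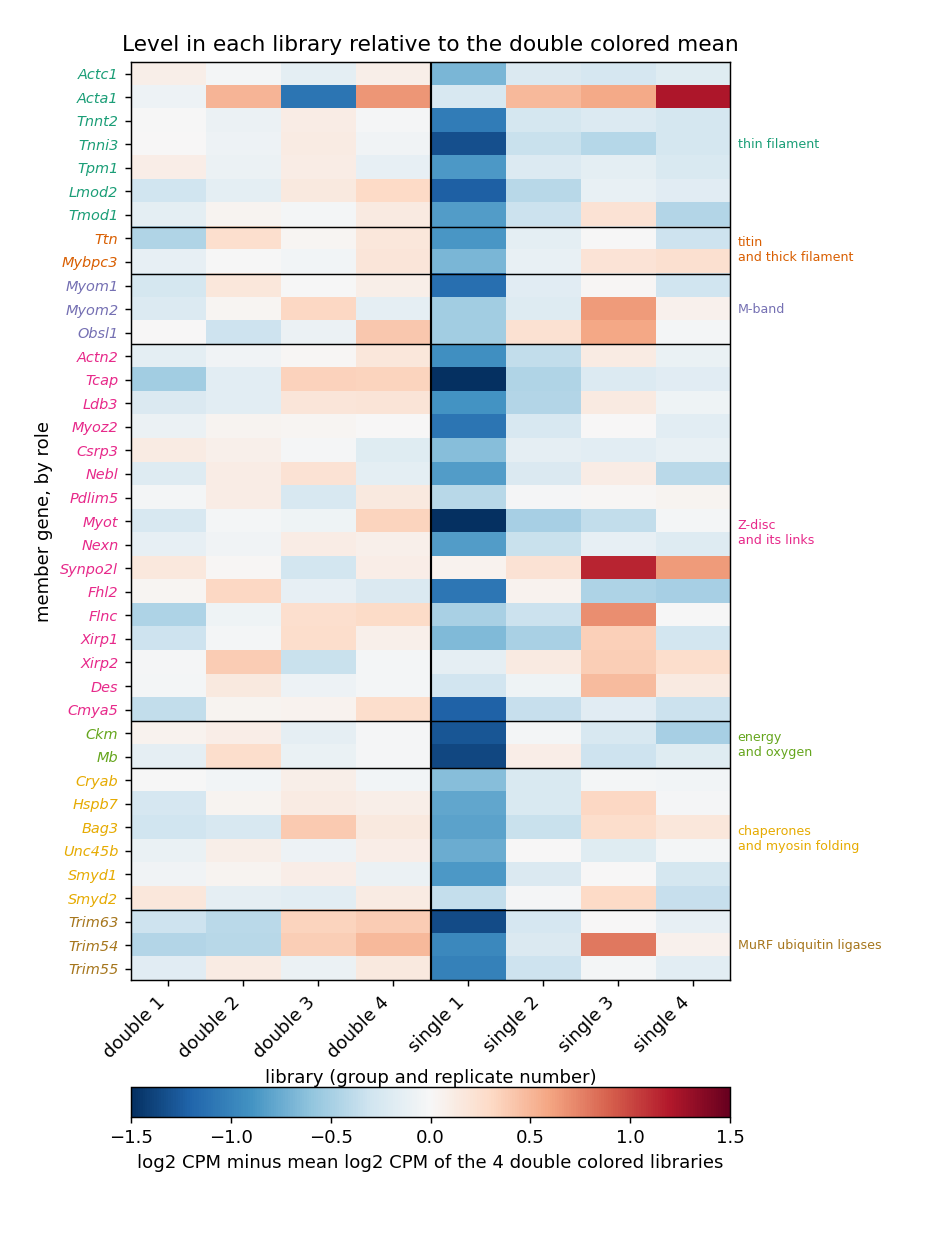
Each cell gives the log2 CPM of one member (rows, by role) in one library (columns) minus the mean log2 CPM of the 4 double colored libraries, with blue for lower and red for higher. Single colored replicate 1 is the lowest library for 36 of the 39 members, while Synpo2l and Acta1 have their highest values in single colored libraries.

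Sums of fibroblast, macrophage and T lymphocyte markers were highest in single colored replicate 1, and those of endothelial and smooth muscle markers were not. The 10 cardiomyocyte markers, all detected, summed to 3241 CPM in single colored replicate 1, to between 5815 and 6848 CPM in the other 3 single colored libraries and to between 6388 and 8503 CPM in double colored ones. The 8 fibroblast markers, all detected, summed to 1848 CPM in single colored replicate 1, to 1045, 710 and 623 CPM in replicates 2, 3 and 4, and to between 300.2 and 738 CPM in double colored libraries. Col1a1, Col1a2, Col3a1 and Postn held most of that sum, with log2 fold changes from 1.00 to 1.76, of which Col1a1 passed (edgeR adjusted p = 0.0460), whereas Lum had 0.29, Pdgfra 0.09, Dcn −0.10 and Tcf21 −0.79. The 10 macrophage markers summed to 226 to 399 CPM in single and 111 to 150 CPM in double colored libraries. The 6 T lymphocyte markers summed to 14.3 to 28.2 and 1.30 to 3.48 CPM. All of these markers were detected, and both sums were highest in single colored replicate 1. All 6 T lymphocyte and 4 of 10 macrophage markers passed as higher in single colored cells, beside 2.32% of all tested genes. Their median log2 fold changes were 2.91 and 0.87, and no marker of either list had a negative one. Endothelial markers (6 genes) ranged from 116 to 148 and from 123 to 161 CPM, and smooth muscle markers (6 genes) from 226 to 323 and from 299 to 408 CPM. Skeletal muscle markers (8 genes, Myod1 and Myog at 0) stayed between 0.754 and 4.10 CPM. The part of these other cells in the member values was not tested, and in such bulk samples fewer cardiomyocytes and less RNA of a gene per cardiomyocyte cannot be told apart.

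The pair of most abundant members were thin filament genes. Per kilobase of exon, Tnnt2, the troponin subunit that binds tropomyosin, stood at 1823 ± 109 RPKM in double colored cells (SD, n = 4), close to the cardiac actin gene Actc1 at 1796 ± 133. Within this group, Tpm1, the tropomyosin gene, followed at 238 ± 20.3 and Tnni3, the inhibitory troponin subunit of adult heart, at 200.2 ± 12.9, whereas the skeletal actin gene Acta1 stood at 21.3 ± 9.70. Of 9 thin filament members 7 were tested, none passed, 6 had negative fold changes, and their median was −0.34. Tnni3 (ENSMUSG00000035458, mm9 chromosome 7, 4469907 to 4475831) was measured at 388, 365, 420 and 371 CPM in double colored libraries 1 to 4 and at 154, 307, 287 and 320 CPM in single colored ones. The groups did not overlap, and the log2 fold change was −0.53 ± 0.21 (SE; edgeR adjusted p = 0.230). With the replicate block it was −0.58 (edgeR adjusted p = 0.0423), with the block but without both libraries numbered 1 it was −0.34 (0.0282), and without single colored replicate 1 and without a block it was −0.35 (0.157).

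Tnnt2 (ENSMUSG00000026414, chromosome 1, 137737452 to 137748837) stood at 2002, 1895, 2182 and 1986 CPM in double and at 970, 1677, 1745 and 1678 CPM in single colored libraries 1 to 4, again without overlap, and the log2 fold change came to −0.41 ± 0.21 (edgeR adjusted p = 0.380). Actc1 (ENSMUSG00000068614, chromosome 2, 113873018 to 113879284) stood at 3078, 2841, 2630 and 3074 CPM and at 1798, 2487, 2433 and 2552 CPM (−0.33 ± 0.19, edgeR adjusted p = 0.456). Tnni3, Tnnt2, Actc1 and Tpm1 were the 4 members of 39 with every single colored library below every double colored one, beside 3.76% of all tested genes. No member lay above without overlap, beside 5.37%. Those 4 hold under TMM scaling, and under scaling by nuclear-encoded totals the 3 such members were Tnnt2, Tnni3 and Nexn, beside 2.21% of all genes. Lmod2, a leiomodin that lengthens thin filaments, stood at 259, 289, 355 and 394 CPM in double and at 137, 239.7, 297 and 285 CPM in single colored libraries 1 to 4 (−0.44 ± 0.23, edgeR adjusted p = 0.389, 0.0512 with the block and 0.0273 with the block and without both libraries numbered 1). Tmod1, which caps the pointed end of the filament, was at −0.30 ± 0.19 (edgeR adjusted p = 0.493). On the opposite strand, Tstd2 covers 32.6% of the exons of Tmod1, and ENSMUSG00000085493 covers 26.6% of those of Trim54. The labels do not say whether counting used strand, and reads of such a pair may then be mixed or left uncounted. Over the 8 libraries Tstd2 held 381 reads beside 4663 for Tmod1, and ENSMUSG00000085493 held 16 beside 1093 for Trim54.

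Acta1 (ENSMUSG00000031972, chromosome 8, 126415669 to 126418651), an actin gene of skeletal muscle and fetal heart, was the thin filament member with a positive fold change. It stood at 26.4, 39.8, 13.1 and 44.05 CPM in double colored libraries 1 to 4 and at 23.6, 39.2, 41.4 and 64.5 CPM in single colored ones, with wide overlap (0.45 ± 0.40, edgeR adjusted p = 0.674). Within each library, Acta1 reads amounted to 0.857%, 1.40%, 0.498% and 1.43% of Actc1 reads in double colored cells and to 1.31%, 1.58%, 1.70% and 2.53% in single colored cells. The ratio does not depend on how libraries are scaled. It was higher in the single colored library of each of the 4 numbered pairs, by 0.84 ± 0.41 (SE) on the log2 scale, but groups overlapped (exact permutation test, two-sided, p = 0.0857, 0.274 adjusted over 6 ratios, 0.125 within pairs, the smallest that 4 pairs allow). Transcripts of Acta1 and Actc1 in GENCODE vM21 shared 0 of their 50-base words, so reads of that length without mismatches would be told apart.

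The fetal and slow muscle troponin gene Tnni1 had 2, 0, 0 and 0 reads in double and 2, 0, 5 and 1 reads in single colored libraries, too few to test, so that the ratio of Tnni1 to Tnni3 (1.38 ± 0.91 on the log2 scale, exact permutation p = 0.200, 0.274 adjusted) rests on almost no reads. Tnnc1, the calcium-binding troponin subunit, was listed at 0 reads in all 8 libraries. In the mm9 annotation used for counting, its exons overlap a second gene record on the same strand, ENSMUSG00000021909, over 99.0% of their length, and that record was also at 0. No level can be given for Tnnc1 from these counts.

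Actc1 and Acta1 are classic targets of serum response factor, which binds the CArG box, and the bases before their start sites show where that motif lies. The lines below give 250 bases before the RefSeq start site on the minus strand of GRCm38.p6, 5′ to 3′, with the CArG box in capitals, at chr2:114052876-114053125 for Actc1 and chr8:123894776-123895025 for Acta1.
Actc1: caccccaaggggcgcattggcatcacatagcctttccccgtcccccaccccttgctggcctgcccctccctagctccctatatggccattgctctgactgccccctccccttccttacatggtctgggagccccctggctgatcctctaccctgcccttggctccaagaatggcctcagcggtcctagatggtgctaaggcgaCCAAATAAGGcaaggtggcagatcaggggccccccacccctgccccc
Acta1: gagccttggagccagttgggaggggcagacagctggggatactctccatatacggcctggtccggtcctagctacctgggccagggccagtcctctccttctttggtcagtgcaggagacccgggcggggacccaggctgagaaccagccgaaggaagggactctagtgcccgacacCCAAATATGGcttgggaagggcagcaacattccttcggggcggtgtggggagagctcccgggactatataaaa
The first base of the box lies 47 bases before the start of Actc1 and 73 bases before that of Acta1. In Acta1 alone, TATAAA lies 7 and CATTCC 46 bases before the start. Of 34 members with a RefSeq promoter sequence, 6 held a CArG box in this window (17.6%; Actc1, Acta1, Myom1, Ldb3, Nebl and Fhl2), where 1.62% of all 27025 genes did, a gene being counted when any of its promoters matched. The MEF2 site also occurred in 6 (Ttn, Mybpc3, Myoz2, Synpo2l, Fhl2 and Xirp2), beside 3.42% of all genes, TATAAA in 5 (14.7%) beside 14.3%, and CATTCC in 9 (26.5%) beside 14.4%. Over single promoters the shares were 1.47%, 2.92%, 12.4% and 12.6% of 32851. The share of members with TATAAA is near that of all genes. Both strands were searched. A match describes letters, not binding.

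Titin and the thick filament were represented by 2 members. Ttn (ENSMUSG00000051747, chromosome 2, 76542037 to 76820604), the giant spring of the sarcomere, held 2937707 reads over the 8 libraries. It stood at 10773, 17496, 14970 and 16621 CPM in double and at 8050, 13280, 14671 and 11893 CPM in single colored libraries 1 to 4. Its groups overlapped, although the single colored library was the lower of each pair (−0.32 ± 0.24, edgeR adjusted p = 0.581). Mybpc3, which encodes cardiac myosin-binding protein C, stood at 199.6, 217, 211 and 247 CPM and at 135, 201, 251 and 257 CPM (−0.05 ± 0.20, adjusted p = 0.948). Single colored replicates 3 and 4 lay above all double colored libraries, and replicate 1 below them all.

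The 3 M-band members had a median of 0.05 and none passed. The sign of this median did not hold: it was −0.22 without single colored replicate 3, with all 3 negative, 0.19 without single colored replicate 1, and just below 0 without double colored replicate 1, 2 or 4 and with the block. Myom1, the main myomesin, which bridges thick filaments, stood at 258, 347, 308 and 329 CPM in double and at 141, 275, 313 and 251 CPM in single colored libraries 1 to 4 (−0.34 ± 0.22, edgeR adjusted p = 0.495). Its paralog Myom2 stood at 56.1, 65.7, 80.3 and 58.6 CPM and at 45.1, 56.3, 100.4 and 67.4 CPM (0.05 ± 0.21, adjusted p = 0.957). The ratio of Myom2 to Myom1 was higher in the single colored library of all 4 pairs, from 18.9% to 20.5% of Myom1 reads at the least in pair 2 and from 17.8% to 26.9% at the most in pair 4, with a mean difference of 0.39 ± 0.19 (SE) on the log2 scale (exact permutation test, two-sided, p = 0.114, 0.274 adjusted over 6 ratios, 0.125 within pairs). Obsl1, a cytoskeletal linker related to obscurin, was the least abundant tested member per kilobase, at 0.778 ± 0.166 RPKM in double colored cells. It stood at 6.66, 5.36, 6.27 and 8.78 CPM in double and at 4.64, 7.82, 9.94 and 6.51 CPM in single colored libraries (0.09 ± 0.23, adjusted p = 0.908).

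**Figure D2:**
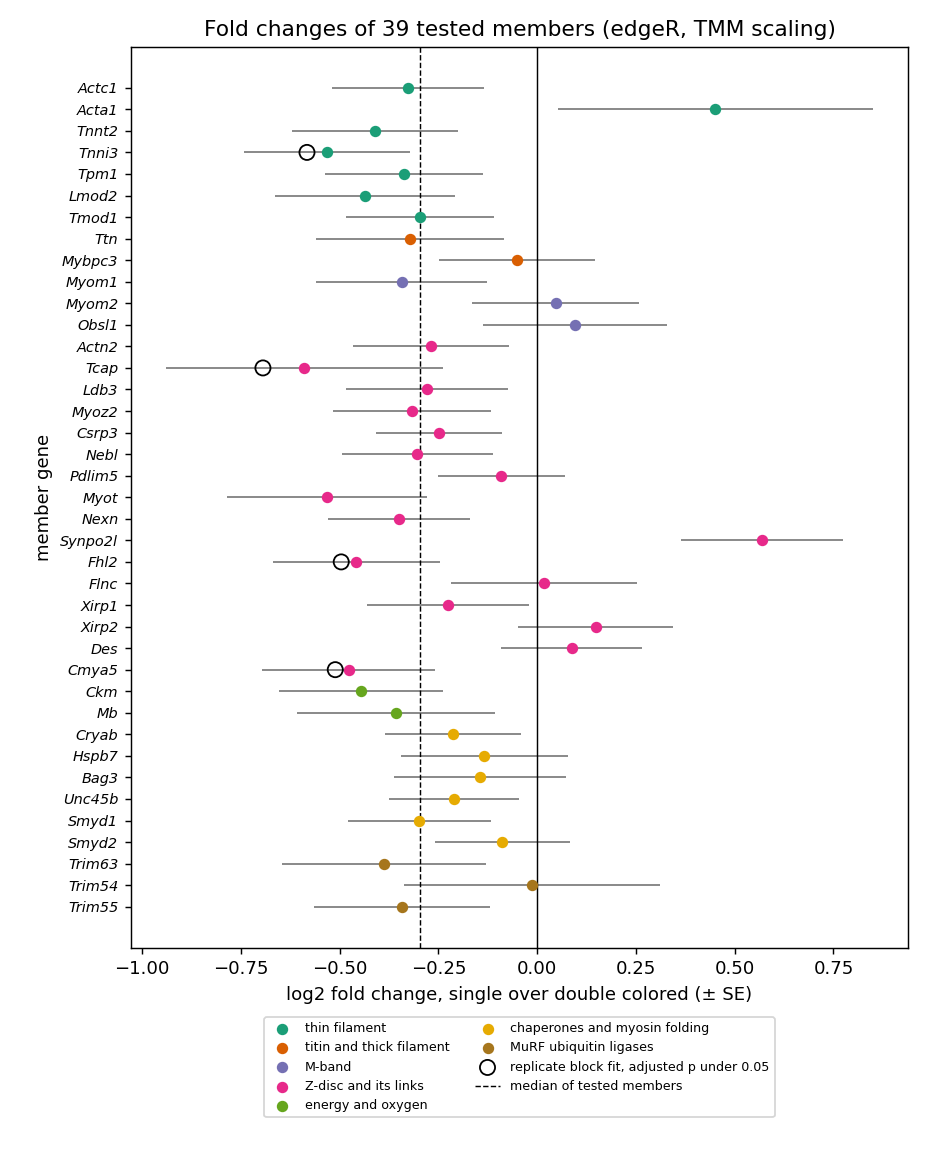
Points are log2 fold changes of single over double colored cells for the 39 tested members with their standard errors, colored by role, and the dashed line is their median of −0.30. Open circles are values with the replicate number as a block for the 4 members past the threshold there, Tnni3, Tcap, Fhl2 and Cmya5, which all lie left of the median.

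Z-disc members ranged from the lowest to the highest fold change of all. Of 16 tested members none passed, 12 had negative fold changes, and the median was −0.27. Tcap, or telethonin, which joins the ends of titin molecules at the Z-disc, was the lowest, and is named here after its values were seen. Tcap (ENSMUSG00000007877, chromosome 11, 98245125 to 98246267) stood at 61.8, 79.8, 113 and 112 CPM in double and at 22.4, 65.2, 76.8 and 79.2 CPM in single colored libraries 1 to 4. Both groups were wide and overlapped, but each single colored library lay below its pair (−0.59 ± 0.35, edgeR adjusted p = 0.477). With the replicate block the log2 fold change was −0.69 (edgeR adjusted p = 0.00998), and −0.45 (0.00859) when both libraries numbered 1 were also left out.

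Cmya5 (ENSMUSG00000047419, chromosome 13, 93810668 to 93914679) encodes myospryn, a large protein of the Z-disc and costamere. It stood at 298, 395, 399 and 461 CPM in double and at 166, 301, 341 and 307 CPM in single colored libraries 1 to 4 (−0.48 ± 0.22, edgeR adjusted p = 0.315). Each single colored library was the lower of its pair, and with the block the value was −0.51 (edgeR adjusted p = 0.0344), or −0.40 (0.00859) without both libraries numbered 1. Fhl2 (ENSMUSG00000008136, chromosome 1, 43179919 to 43220806), a LIM protein that binds titin and several transcription factors, stood at 187, 227, 168 and 158 CPM and at 86.1, 189, 133 and 129.9 CPM (−0.46 ± 0.21, edgeR adjusted p = 0.318). Its block value lay just inside the threshold (−0.50, edgeR adjusted p = 0.0495) and passed it no longer without both libraries numbered 1 (−0.29, 0.0660).

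Synpo2l (ENSMUSG00000039376, chromosome 14, 21478168 to 21487576), an actin-binding Z-disc protein related to synaptopodin, had the highest fold change among the members. It stood at 29.6, 26.8, 21.99 and 28.4 CPM in double and at 27.4, 30.8, 58.7 and 41.4 CPM in single colored libraries 1 to 4. Only the first single colored library reached down into the double colored range (0.57 ± 0.21, edgeR adjusted p = 0.185, and 0.103 with the block). The members' own median in each library needs no scaling between libraries. Set against it, Synpo2l lay higher in single colored cells by 0.78 on the log2 scale (0.39 ± 0.29 against −0.40 ± 0.27, SD, n = 4). Synpo2l was the 1 member of 39 whose groups did not overlap on that scale. That is no larger a share than the 2.86% that chance alone gives in either direction. The share of all genes was not computed on that scale. Synpo2l passed with scaling by library totals (1.09, edgeR adjusted p = 0.00556) and by the cardiomyocyte markers (0.94, 0.0203). These scalings moved the median of all genes to 0.48 and 0.47. It also passed with no filter on low counts (0.57, 0.0361) and with the block and without both libraries numbered 1 (0.72, 0.0378). It did not pass with DESeq2 (adjusted p = 0.146), nuclear-encoded totals (0.0836) or a filter at 5 CPM (0.147). The log2 fold change was 0.31 without single colored replicate 3 (edgeR adjusted p = 0.412) and 0.70 without single colored replicate 1 (0.0766). In the authors' deposited table, Synpo2l was the 1 member of 39 with a raw p under 0.05, beside 1535 of all 15711 genes. The authors' log2 fold change for Synpo2l was 0.56 in the same direction, with an FDR of 0.477.

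**Figure D3:**
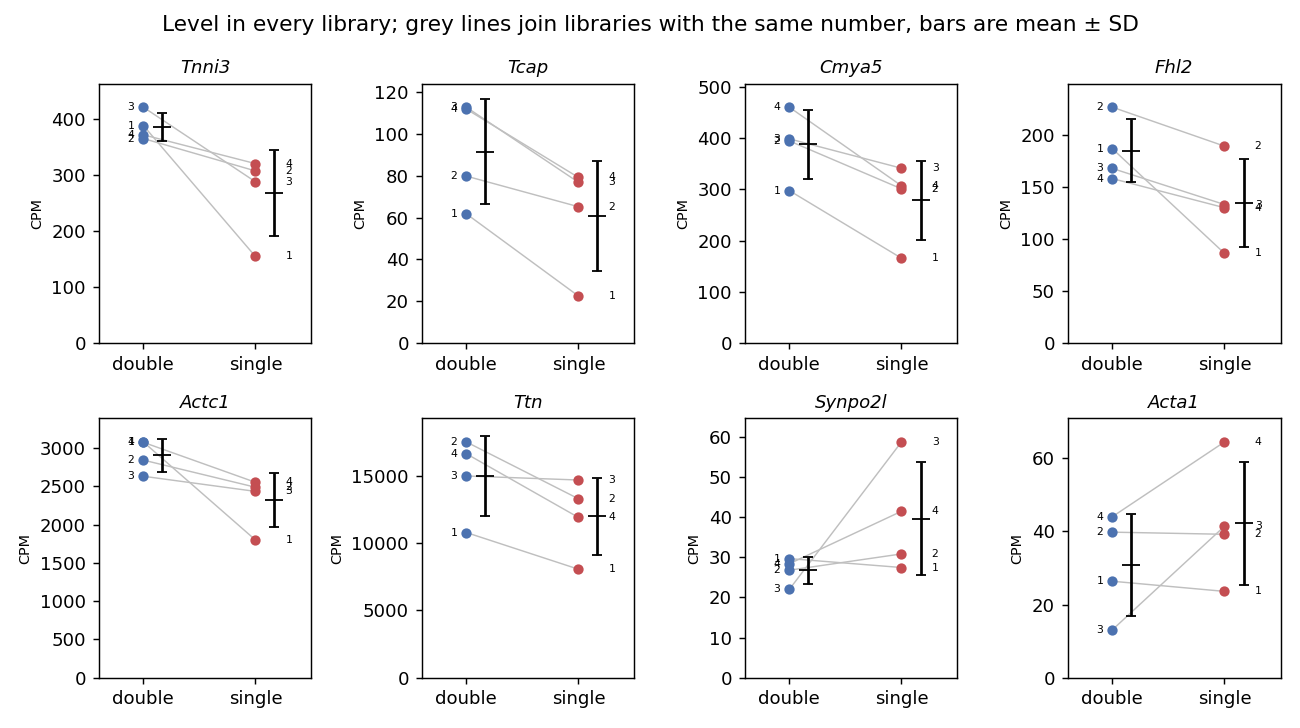
CPM of 8 members in every library, double colored on the left and single colored on the right of each panel, with the replicate number beside each point, grey lines joining equal numbers, and bars for mean ± SD. The single colored point is the lower of all 4 pairs for Tnni3, Tcap, Cmya5, Fhl2, Actc1 and Ttn, and the higher of 3 of 4 for Synpo2l.

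Synpo2l, with the highest fold change, and Fhl2, among those lower with the block, both have a MEF2 site before a start site. The lines give 250 bases before 1 RefSeq start site of each on the minus strand of GRCm38.p6, at chr14:20668355-20668604 for Synpo2l and chr1:43196762-43197011 for Fhl2, with MEF2 sites and CArG boxes in capitals.
Synpo2l: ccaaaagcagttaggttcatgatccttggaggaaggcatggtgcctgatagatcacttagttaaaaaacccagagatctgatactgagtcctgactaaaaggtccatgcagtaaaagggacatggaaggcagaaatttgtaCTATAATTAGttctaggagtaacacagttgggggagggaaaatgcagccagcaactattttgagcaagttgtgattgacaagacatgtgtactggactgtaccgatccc
Fhl2: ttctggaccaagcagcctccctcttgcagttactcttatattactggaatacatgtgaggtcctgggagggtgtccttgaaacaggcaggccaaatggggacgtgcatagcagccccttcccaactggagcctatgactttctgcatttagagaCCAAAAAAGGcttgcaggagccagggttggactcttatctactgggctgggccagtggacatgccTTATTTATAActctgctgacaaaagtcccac
In Synpo2l the MEF2 site begins 109 bases before the start. In Fhl2 the CArG box begins 96 and the MEF2 site 31 bases before the start, and the latter overlaps TATAAA on the other strand.

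Among the other Z-disc members, Actn2, the alpha-actinin that crosslinks thin filaments, averaged 173 CPM in double and 144 CPM in single colored cells, with overlapping groups (−0.27 ± 0.20, edgeR adjusted p = 0.578). Myot, or myotilin, had −0.53 ± 0.25 (0.332), the actin-binding Nexn −0.35 ± 0.18 (0.384), the calcineurin-binding Myoz2 −0.32 ± 0.20 (0.493) and the nebulin-related Nebl −0.30 ± 0.19 (0.493). Ldb3, also called Cypher, had −0.28 ± 0.20 (0.579), the LIM protein Csrp3 −0.25 ± 0.16 (0.504) and Pdlim5 −0.09 ± 0.16 (0.855). Des, which encodes the intermediate filament protein desmin, had 0.09 ± 0.18 (0.878) and Flnc, which encodes filamin C, 0.02 ± 0.24 (0.984). Xirp1 and Xirp2 bind actin at the intercalated disc. Xirp1 stood at 52.5, 63.9, 78.7 and 68.9 CPM in double and at 41.3, 46.7, 83.9 and 53.9 CPM in single colored libraries 1 to 4 (−0.23 ± 0.20, adjusted p = 0.673), and Xirp2 at 646, 855, 518 and 642 CPM and at 596, 721, 844 and 785 CPM (0.15 ± 0.20, 0.799). The ratio of Xirp2 to Xirp1 was higher in the single colored library of all 4 pairs, by 0.42 ± 0.27 (SE) on the log2 scale, with overlapping groups (exact permutation test, two-sided, p = 0.171, 0.274 adjusted, 0.125 within pairs).

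Ckm, the muscle creatine kinase that regenerates ATP at the M-band, stood at 77.4, 79.8, 67.8 and 73.8 CPM in double and at 30.6, 72.9, 62.9 and 53.0 CPM in single colored libraries 1 to 4. The groups touched only through single colored replicate 2, and the log2 fold change was −0.45 ± 0.21 (edgeR adjusted p = 0.323, 0.0694 with the block). On the opposite strand, A930016O22Rik covers 31.9% of the exons of Ckm. A930016O22Rik held 40 reads over the 8 libraries, beside 13950 for Ckm. Mb, which encodes the oxygen store myoglobin, stood at 840, 1100, 857 and 905 CPM and at 357, 985, 740 and 810 CPM (−0.36 ± 0.25, adjusted p = 0.554), lower in the single colored library of each pair but with overlap.

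Chaperones of the myofibril showed small differences. All 6 members had negative fold changes, with a median of −0.18, and none passed. Smyd1, a methyltransferase that works with myosin chaperones in sarcomere assembly, stood at 155, 164, 172 and 150.2 CPM in double and at 88.3, 138, 161 and 134 CPM in single colored libraries 1 to 4 (−0.30 ± 0.18, edgeR adjusted p = 0.470). The related Smyd2 stood at 17.4, 13.997, 13.8 and 16.8 CPM and at 12.03, 15.3, 18.9 and 12.1 CPM (−0.09 ± 0.17, 0.871). Their ratio was higher in single colored libraries by 0.22 ± 0.18 (SE) on the log2 scale, with mixed directions among pairs (exact permutation test, two-sided, p = 0.229, 0.274 adjusted, 0.375 within pairs). Unc45b, the myosin-folding chaperone, stood at 19.9, 22.6, 20.2 and 22.8 CPM in double and at 12.8, 21.5, 18.8 and 20.9 CPM in single colored libraries (−0.21 ± 0.16, adjusted p = 0.607). Cryab, a small heat shock protein that protects desmin and titin, stood at 275, 267, 294 and 269 CPM and at 178, 236, 271 and 269 CPM (−0.21 ± 0.17, 0.627). Both were lower in each single colored library than in its pair, with the groups overlapping. Hspb7, another small heat shock protein, had −0.13 ± 0.21 (0.835) and Bag3, a cochaperone of chaperone-assisted autophagy at the Z-disc, −0.15 ± 0.22 (0.824).

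The MuRF ubiquitin ligases mark sarcomere proteins for breakdown, and MuRF1 binds titin near the M-band. None of the 3 passed, and their median was −0.34. Trim63, or MuRF1, stood at 17.5, 16.4, 27.3 and 28.2 CPM in double and at 8.57, 18.2, 21.7 and 19.9 CPM in single colored libraries 1 to 4 (−0.39 ± 0.26, edgeR adjusted p = 0.527). Trim55, or MuRF2, stood at 5.32, 6.50, 5.62 and 6.60 CPM and at 2.96, 4.82, 5.85 and 5.36 CPM (−0.34 ± 0.22, 0.509). Trim54, or MuRF3, stood at 3.43, 3.499, 6.01 and 6.56 CPM and at 2.38, 4.01, 8.04 and 4.88 CPM (−0.01 ± 0.32, 0.992). All 3 had groups that overlapped, and for Trim63 and Trim54 libraries 3 and 4 lay above libraries 1 and 2 in double colored cells. The ratio of Trim63 to Trim55 differed by −0.05 ± 0.23 (SE) on the log2 scale (exact permutation p = 0.800, 0.800 adjusted).

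**Figure D4:**
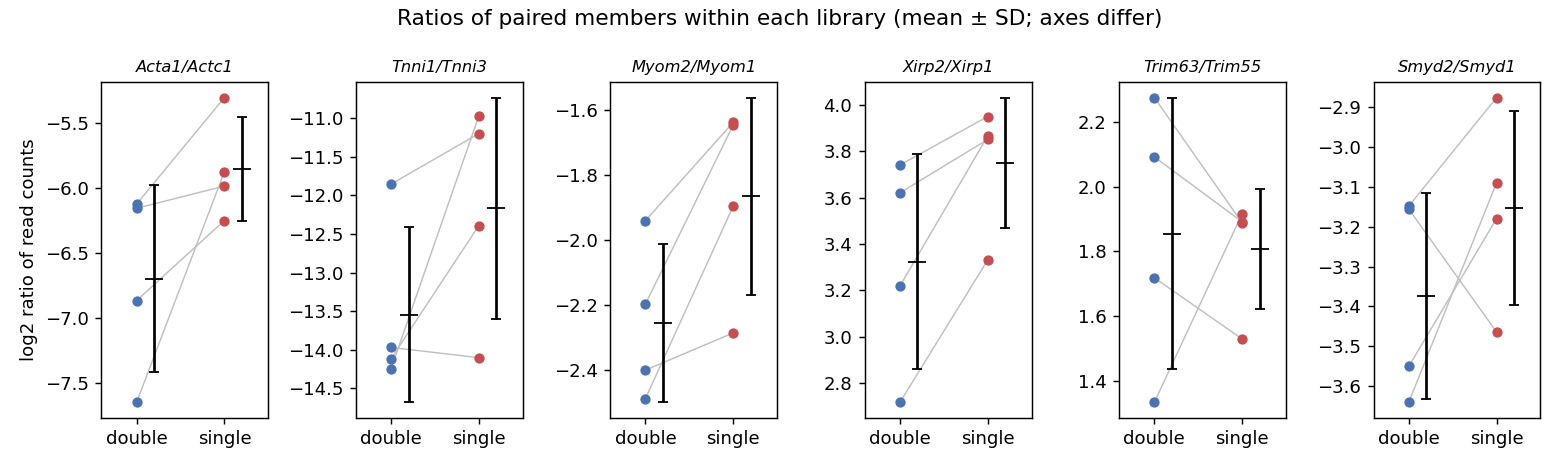
Log2 ratios of read counts of 2 members in the same library, with grey lines joining libraries of equal number and bars for mean ± SD. The ratios of Acta1 to Actc1, Myom2 to Myom1 and Xirp2 to Xirp1 are higher in the single colored library of all 4 pairs, while groups overlap in all 6 panels.

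Directions of the members depended on what the libraries were scaled to. With scaling by library totals alone the median of all tested genes moved to 0.48 and that of the members to 0.19, with 5 of 39 negative and Synpo2l and Acta1 (0.91, edgeR adjusted p = 0.0319) higher, where 11.1% of all genes were higher and 0.00802% lower. With scaling by the 10 cardiomyocyte markers, an alternative chosen after seeing the data, the medians were 0.47 and 0.11, and Synpo2l was higher and none lower, beside 3.79% and 0% of all genes. With scaling by nuclear-encoded totals they were 0.10 and −0.21, and none passed, beside 2.77% of all genes. A filter at 5 CPM left 38 members, none of which passed (2.03% of all genes), and with no filter Synpo2l was higher and Tcap lower (edgeR adjusted p = 0.0270), beside 2.71% and 0.688%. No member lay wholly below the double colored libraries with library totals (0.128% of all genes) or with the cardiomyocyte markers (0.193%). Wholly above lay Synpo2l and Xirp2 with library totals (15.9% of all genes), Synpo2l with nuclear-encoded totals (6.69%), and Mybpc3, Myom2, Synpo2l, Xirp2, Des and Hspb7 with the cardiomyocyte markers (13.3%). The members' median therefore lay below that of all genes under each of these scalings, while the sign of its fold change did not hold. Among the 4 members lower with the block, log2 fold changes with scaling by library totals were −0.10 for Tnni3, −0.18 for Tcap, −0.02 for Cmya5 and −0.01 for Fhl2. The cardiomyocyte markers, which are not members, had a median of −0.44 under TMM scaling, and all 10 had negative fold changes.

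**Figure D5:**
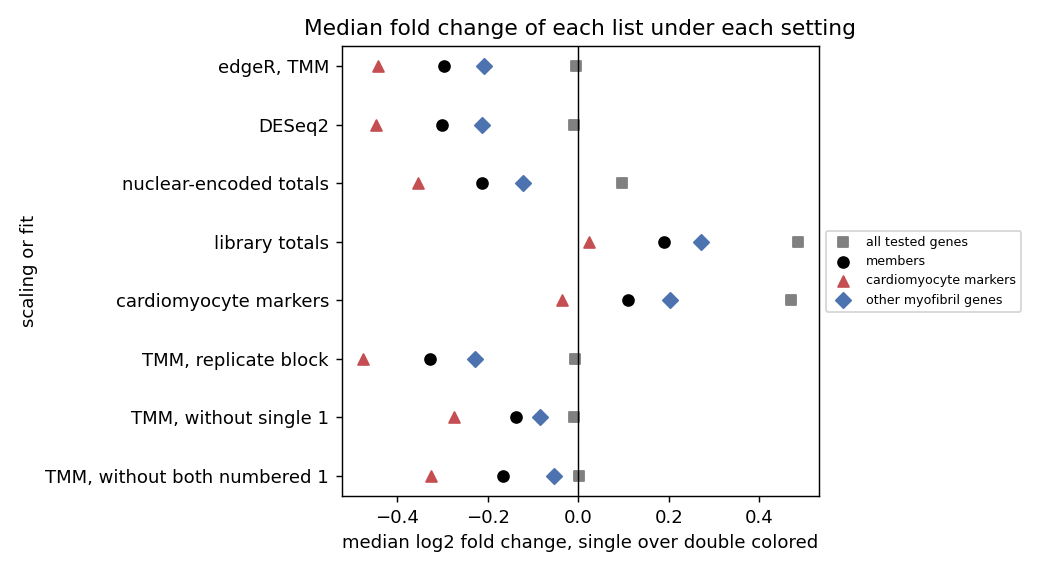
Median log2 fold change of single over double colored cells for all tested genes, the members, the cardiomyocyte markers and the other myofibril genes, under each scaling or fit. The members lie below all tested genes in each of the 8 settings shown, on either side of 0 depending on the scaling.

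A further 48 genes of the myofibril that are not members were read from the same fit. Of the 38 tested none passed, at a median of −0.21 with 25 negative, beside 2.32% of all genes higher and 0.16% lower, and 4 were lower and 2 higher at an unadjusted p under 0.05 (6.1% and 9.02% of all genes). DESeq2 placed 1 higher, Actn1, and none lower, beside 455 and 101 of all 12466 genes. With the replicate block 1 was higher, Actn1, and 2 were lower, Itgb1bp2 and Fhod3, beside 4.97% and 2.57% of all genes. Actn1, the alpha-actinin of non-muscle and smooth muscle cells, averaged 3.87 ± 1.81 CPM in the double and 7.58 ± 1.31 CPM in the single colored group (SD, n = 4). The difference was 0.97 ± 0.28 on the log2 scale (SE; edgeR adjusted p = 0.0801, 0.0289 with DESeq2 and 0.00444 with the block). Itgb1bp2, or melusin, an integrin-binding protein of the costamere, had −0.58 ± 0.18 (edgeR adjusted p = 0.120, 0.0221 with the block), and its groups did not overlap, but with the block and without both libraries numbered 1 the adjusted p was 0.135. Fhod3, a formin of the sarcomere named here after its values were seen, had −0.54 ± 0.22 (edgeR adjusted p = 0.242, 0.00696 with the block and 0.0175 with the block and without both libraries numbered 1). Ankrd1, a stress-responsive titin-binding protein, had 0.56 ± 0.22 (0.233). In the authors' deposited table none of the 39 members with a value had an FDR below 0.477.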

How the data were processed

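RNA was measured by sequencing in 4 single and 4 double colored libraries. The authors deposited one table of read counts per gene (mm9), entered here as estimated counts although all are whole numbers, with their own log2 fold changes, p-values and FDR. Reads were aligned with STAR 2.5.2b and counted with featureCounts from Subread, per the submitters' processing notes, at a mapping quality of 30 per the file headers. Whether strand was used in counting is not stated in those notes.

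The labels gave each library its group and number. Symbols were matched for 32919 of 37991 identifiers. Counts were filtered with filterByExpr (minimum count 10), scaled by TMM (factors 0.733 to 1.44) and tested with edgeR 4.0.16 in R 4.3.3 (robust quasi-likelihood test, Benjamini-Hochberg adjustment over 12466 genes, threshold 0.05), a procedure tested on simulated data. CPM are counts relative to the TMM-scaled library size (edgeR cpm), and RPKM divide these by the length of all exons of a gene in kilobases. Ratios used read counts plus 0.5 and exact permutation over 70 groupings, whose smallest p is 0.0286. Exon overlaps used GenomicRanges 1.54.1, and promoters are from RefSeq (GRCm38.p6, matched for 34 of 41 members).

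Alternatives were DESeq2 1.42.0, scaling by totals, other filters, the replicate block and leaving out libraries. Deviations from the group means correlated at 0.299, 0.167, 0.184 and 0.168 between libraries numbered 1 to 4, above all other pairings of these libraries (highest 0.128), so the labels' numbers were taken to pair them.

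Values in every library are given for members past the threshold, for up to 3 members with the smallest p per role and for both members of each ratio, and of the other myofibril genes the 3 with the smallest p are named. Members and lists were chosen with earlier results of these data known.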

Additional observations from a re-analysis of the deposited data

Results flagged for a closer look

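Of 78 groups of 4 libraries, 5 held a library far from the other 3 relative to the range of the group (Dixon's test). Chance alone gives about 1 in 20, so this count is near the chance share. The share over all tested genes is not given, and the groups share the same libraries. All 5 were low values of single colored replicate 1. Actc1 stood there at 1798 CPM, with the nearest other single colored library at 2433 CPM, Tnnt2 at 970 CPM (nearest 1677), Tpm1 at 849 CPM (nearest 1318), Csrp3 at 63.1 CPM (nearest 88.0) and Pdlim5 at 85.5 CPM (nearest 112). The summed cardiomyocyte markers were lowest and the summed fibroblast, macrophage and T lymphocyte markers highest in the same library, and their part in these values was not tested.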

How the results depend on the processing

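The count of genes past the threshold was 309, and it was 556 with DESeq2, 1390 with scaling by library totals, 805 with no filter on low counts, 97 with a filter at 5 CPM, 473 with scaling by the cardiomyocyte markers, 939 with the replicate block, 146 without both libraries numbered 1 and 523 with the block and without them. Leaving out 1 library at a time gave 134 to 304 genes, with 191 when double colored replicate 2 was out, 134 for double colored replicate 4 and 142 for single colored replicate 1. No member passed in any of those 8 fits. Members past the threshold were 2 higher with library totals, 1 higher with the cardiomyocyte markers, 1 higher and 1 lower with no filter, 4 lower with the replicate block, and 1 higher and 4 lower with the block and without both libraries numbered 1. Scaling by the cardiomyocyte markers and both fits without the libraries numbered 1 were chosen after seeing the data.

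With scaling by library totals the median log2 fold change was 0.19 for the members together, 0.12 for the thin filament group, 0.28 for the titin and thick filament group, 0.54 for the M-band group, 0.20 for the Z-disc and its links group, 0.0403 for the energy and oxygen group, 0.28 for the chaperones and myosin folding group and 0.13 for the MuRF ubiquitin ligases group, and 0.27 for the other myofibril genes. With scaling by the cardiomyocyte markers it was 0.11 for the members together, 0.0759 for the thin filament group, 0.22 for the titin and thick filament group, 0.44 for the M-band group, 0.12 for the Z-disc and its links group and 0.23 for the chaperones and myosin folding group, and 0.20 for the other myofibril genes, which stood at −0.0541 without both libraries numbered 1 and at −0.0613 when the block was added. Log2 fold changes that took the other sign with library totals were Actc1 0.14, Tnnt2 0.0398, Tpm1 0.12, Lmod2 0.0107, Tmod1 0.20, Ttn 0.16, Mybpc3 0.41, Myom1 0.13, Actn2 0.21, Ldb3 0.19, Myoz2 0.15, Csrp3 0.22, Nebl 0.18, Pdlim5 0.39, Nexn 0.11, Xirp1 0.28, Ckm 0.00670, Mb 0.0738, Cryab 0.25, Hspb7 0.35, Bag3 0.31, Unc45b 0.24, Smyd1 0.17, Smyd2 0.41, Trim63 0.0397, Trim54 0.46 and Trim55 0.13. With the cardiomyocyte markers they were Actc1 0.10, Tpm1 0.0759, Tmod1 0.0994, Ttn 0.0951, Mybpc3 0.35, Myom1 0.0452, Actn2 0.12, Ldb3 0.12, Myoz2 0.0674, Csrp3 0.18, Nebl 0.11, Pdlim5 0.34, Nexn 0.0704, Xirp1 0.19, Mb 0.0254, Cryab 0.21, Hspb7 0.26, Bag3 0.26, Unc45b 0.21, Smyd1 0.11, Smyd2 0.33, Trim54 0.35 and Trim55 0.0521. With nuclear-encoded totals they were Mybpc3 0.0358, Pdlim5 0.00319 and Trim54 0.0663. With the replicate block they were Myom2 −0.00189 and Flnc −0.0268, without both libraries numbered 1 Mybpc3 0.0732, Smyd2 0.0571 and Trim54 0.0828, and with the block and without them Mybpc3 0.0684, Pdlim5 0.00464, Flnc −0.0254, Smyd2 0.0416 and Trim54 0.0682. Leaving out 1 library at a time gave both signs for Mybpc3 (−0.17 to 0.11), Myom2 (−0.22 to 0.19), Obsl1 (−0.11 to 0.25), Flnc (−0.30 to 0.15), Des (−0.0742 to 0.19), Hspb7 (−0.32 to 0.0268), Bag3 (−0.30 to 0.0201) and Trim54 (−0.39 to 0.21). The cause of these changes was not tested. With all 8 libraries the block changed the calls of Tcap, Cmya5, Tnni3 and Fhl2 and of no other member, and without both libraries numbered 1 those of Tcap, Cmya5, Tnni3, Lmod2 and Synpo2l. The 6 ratios within libraries do not involve scaling, and none passed the exact test in any setting run. That test had little room to pass. With all 8 libraries its smallest p is 0.0286, so a ratio that separated alone could not pass after adjustment over the 6 ratios. Within pairs the smallest p is 0.125, above the threshold. No conclusion on whether the ratios differ is drawn from their not passing. Tnni1 and Tnnc1 had too few reads for a statement.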
